A study of Setaria italica with 24 samples.

Results

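SiPHT1;3 (SETIT_011707mg), SiPHT1;4 (SETIT_035143mg), SiPHT1;5 (SETIT_014865mg) and SiPHT1;12 (SETIT_006153mg) are members of the phosphate transporter family PHT1 of foxtail millet (Setaria italica). They were taken by gene identifier and are 4 of the 26785 genes listed for any of the 3 lines examined. All 4 were listed in each line and all 4 passed the filter on low values in each line. The lines were 2 from Taiwan, the landrace Hanevalval and the cultivar TT8, and an Indian landrace, ISE36, whose sample labels are spelled ICE36. Roots inoculated with the arbuscular mycorrhizal fungus (AMF) Claroideoglomus etunicatum were compared with mock-treated roots at 6 weeks post inoculation. Seedlings of both treatments were grown in an autoclaved mix of sand and peat moss and were supplied with liquid fertilizer. Each of the 6 groups (AMF and mock of Hanevalval, of TT8 and of ISE36) had 4 libraries, 24 in all. The number of plants behind a library is not given in the sources used here, so the p-values measure the spread between these libraries.

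PHT1 proteins are proton-coupled phosphate carriers of the plasma membrane. Members in the root epidermis and root hairs take phosphate straight from the soil, and in many plants their genes are induced by phosphate starvation. In arbuscular mycorrhizal symbiosis (AMS), phosphate can also reach the plant through the fungus, and a specialised PHT1 member in the membrane around the arbuscules, OsPT11 in rice and MtPT4 in Medicago, takes it over. SiPHT1;9 belongs to that mycorrhizal group in foxtail millet. SiPHT1;3 and SiPHT1;4 are known from another foxtail millet cultivar as genes induced in roots by low phosphate. The comparisons describe how these 4 transporters responded to AMS in each line, and whether they did so alike in different lines. The 4 were chosen with earlier results of these data known. Their calls therefore do not show how often transporters outside the mycorrhizal group respond.

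Values below are normalized counts, that is reads per gene divided by a size factor for each library. Libraries held between 15013564 and 23333517 reads on genes. The reads behind each value could be recovered. The size factors matched those of 1 estimate over all 24 libraries to within ratios of 0.998 and 1.002, so levels in all lines share 1 scale. All lines were aligned to 1 reference genome, and whether this shifted the counts of a gene in some lines was not tested. Levels cannot be compared between genes, because no gene lengths were used. PHT1 is a multigene family, and how reads that fit several members were treated is not given in the sources used here, so reads of near-identical stretches could have been split. In whole roots, fewer cells with a transcript and less transcript per cell cannot be told apart. Responses were tested with limma on log2(value + 1) over all genes with a mean of at least 5. A gene was called where the p adjusted after Benjamini and Hochberg reached 0.05 or less and the change was 2-fold or more.

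The mycorrhizal marker SiPHT1;9 (SETIT_004288mg) was used to check the labels. It stood at 103 to 1475 in AMF-treated Hanevalval, 1940 to 3682 in AMF-treated TT8 and 66.6 to 307 in AMF-treated ISE36. Mock-treated ISE36 was at 0 to 3.31. In mock-treated Hanevalval, SiPHT1;9 was at 1.14 and 1.90 in libraries 1 and 2, but at 97.0 and 29.1 in libraries 3 and 4. In mock-treated TT8 it was below 2 in libraries 1 to 3 and at 74.6 in library 4. A list of 9 symbiosis genes including SiPHT1;9 and orthologs of RAM1, RAM2, STR, STR2, FatM, ABCB12, Exo70I and an AP2 factor summed to 371 to 2474 in AMF-treated Hanevalval. The same sum was 80.9, 85.4, 247 and 141 in mock-treated Hanevalval, where 3, 3, 0 and 1 of the 9 genes were at 0. It was 5193 to 9315 against 79.0 to 223 in AMF- and mock-treated TT8, and 264 to 824 against 97.6 to 134 in AMF- and mock-treated ISE36. By SiPHT1;9, mock libraries 3 and 4 of Hanevalval and mock library 4 of TT8 therefore stood apart from the other mock libraries. The list was less clear for Hanevalval. The sum of 141 in mock library 4 was close to the 134 in mock-treated ISE36, and RAM1 was at 0 there. STR2 went the other way, at 4.66 and 3.24 in mock libraries 3 and 4 against 21.7 and 20.9 in 1 and 2. Results that rest on the libraries set apart by SiPHT1;9 are given with and without them.

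The clearest response was in TT8. SiPHT1;3, SiPHT1;5 and SiPHT1;12 fell in AMF-treated TT8 roots, and SiPHT1;4 was lower by just under the 2-fold threshold. In Hanevalval, SiPHT1;4 averaged 9.52-fold higher on the log scale in AMF-treated roots, but with a wide spread, and whether it was called depended on the fit. In ISE36 no member differed beyond its spread between treatments.

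**Figure D1:**
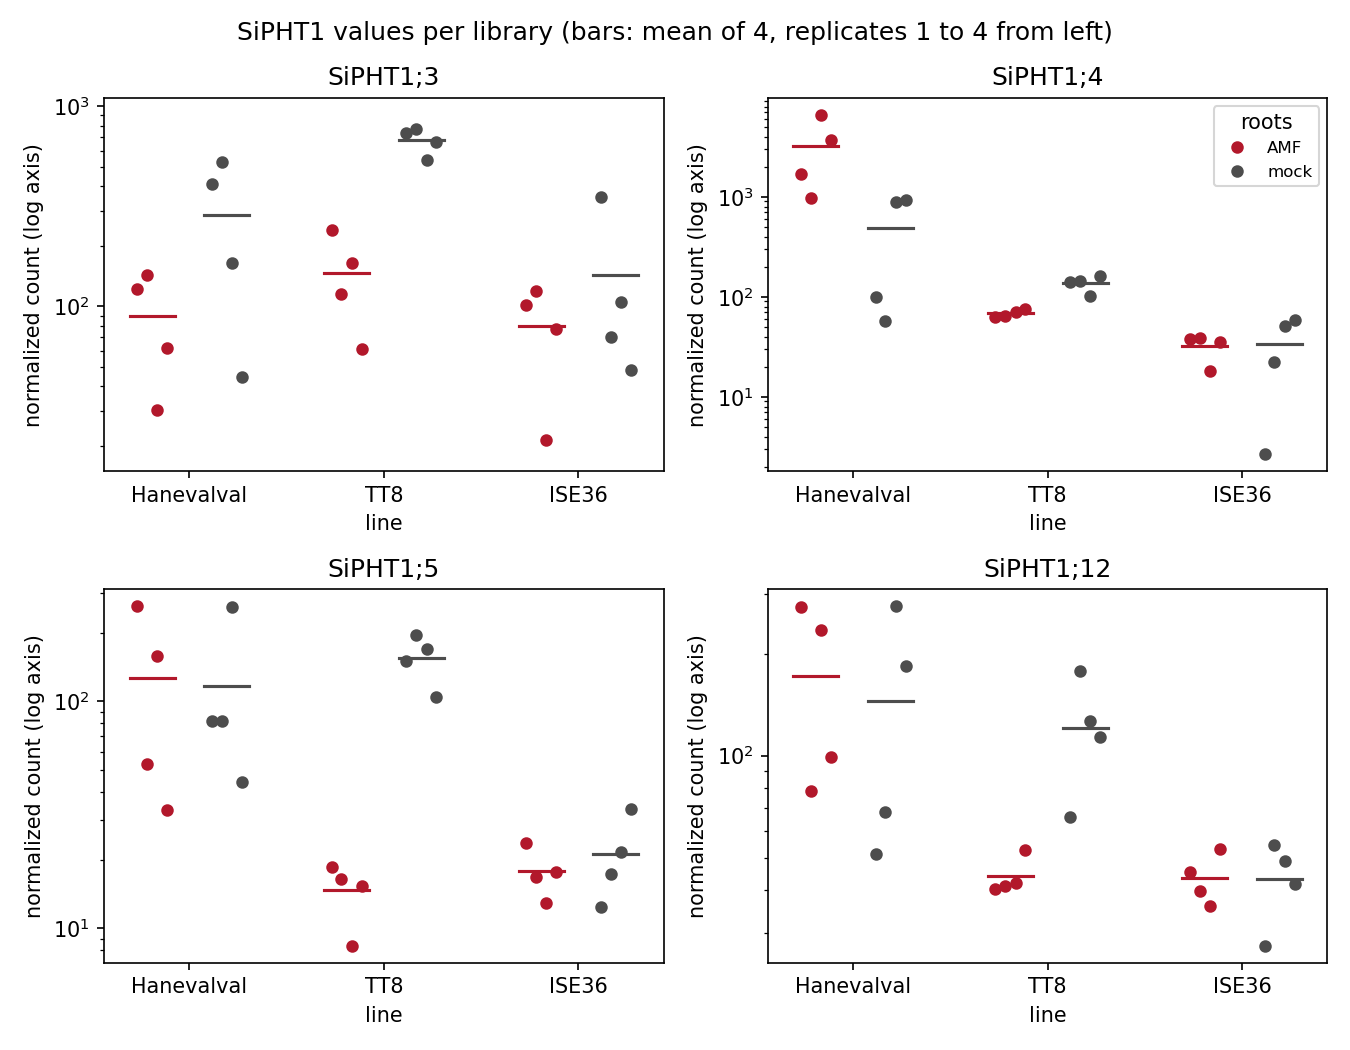
Normalized counts of the 4 SiPHT1 genes (log axis) in each library, with AMF-treated libraries left of mock-treated ones in each line. Points are libraries, replicates 1 to 4 from left to right, and bars are means of 4. In TT8 the AMF points of every gene lie below the mock points, with SiPHT1;5 at 8.39 to 18.5 against 104 to 196, while in ISE36 the points of both treatments overlap for all 4 genes.

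In TT8, SiPHT1;5 showed the largest response of the 4 genes. Its normalized counts were 18.5, 16.5, 8.39 and 15.4 in AMF-treated TT8, against 150, 196, 170 and 104 in mock-treated TT8. The AMF libraries held only 8 to 17 reads of this gene and the mock libraries 88 to 201, and no AMF library came near a mock library. SiPHT1;5 fell by 3.33 on the log2 scale (SE 0.30, limma, adjusted p = 1.8e-04), a level 10.04-fold lower in AMF-treated roots. Of the 24880 genes tested in TT8, only 16 had a lower log2 fold change.

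SiPHT1;3, one of the low-phosphate genes, was at 242, 116, 166 and 61.5 in AMF-treated TT8. Mock-treated TT8 had 738, 766, 539 and 661, the highest values of this gene in any group. The highest AMF library was thus below the lowest mock library by more than the range within mock. SiPHT1;3 fell by 2.36 on the log2 scale (SE 0.36, limma, adjusted p = 0.00434), or 5.12-fold, and 126 genes had a lower log2 fold change. The AMF libraries spread wider than the mock libraries, with ratios of the highest to the lowest of 3.94 and 1.42.

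SiPHT1;12 was at 40.4, 41.4, 41.9 and 52.7 in AMF-treated TT8, against 66.1, 178, 126 and 114 in mock-treated TT8. The AMF libraries were close to each other, and mock library 1 was nearest to them without overlap. SiPHT1;12 fell by 1.36 on the log2 scale (SE 0.29, limma, adjusted p = 0.0133), or 2.57-fold.

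SiPHT1;4, the other low-phosphate gene, was at 63.3, 65.1, 71.3 and 75.8 in AMF-treated TT8, against 142, 143, 103 and 162 in mock-treated TT8. Both groups were tight and did not overlap. The log2 fold change was -0.98 (SE 0.18, limma, adjusted p = 0.00867), a level 1.97-fold lower, so the gene passed the test of significance and missed the fold threshold. With edgeR on the recovered reads it was -1.02, which passes both, whereas in 1 limma fit over the 24 libraries, which shares 1 spread per gene among the lines, the adjusted p was 0.383.

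Thus 3 of the 4 members were called lower in TT8 and 0 higher. Over all genes tested in TT8, 6.1% were called lower and 10.6% higher. Because the members were chosen with earlier results of these data known, their count beside these shares is a description only. All 4 members had AMF libraries below every mock library, a pattern found in 12.1% of all genes in TT8, with 12.6% the other way round. At an unadjusted p of at most 0.05 with the same fold, 7.59% of genes were lower and 12.3% higher. Over all genes in TT8 the median was -0.01 on the same scale. The 3 calls were made by each of the 8 alternative fits and held when any 1 of the 8 TT8 libraries was left out, with log2 fold changes from -3.50 to -3.10 for SiPHT1;5, from -2.652 to -1.999 for SiPHT1;3 and from -1.62 to -1.15 for SiPHT1;12. They therefore held without mock library 4, which was set apart by the mycorrhizal marker. In that library SiPHT1;3 at 661 and SiPHT1;12 at 114 lay between the other mock libraries, SiPHT1;4 at 162 was the highest of the 4 and SiPHT1;5 at 104 was the lowest.

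In Hanevalval, SiPHT1;4 moved the other way. Its normalized counts were 1682, 976, 6599 and 3684 in AMF-treated Hanevalval, against 100.3, 57.0, 890 and 929 in mock-treated Hanevalval. Every AMF library was above every mock library, but mock libraries 3 and 4 were close to AMF library 2 and about an order of magnitude above mock libraries 1 and 2. SiPHT1;4 had a log2 fold change of 3.25 (SE 1.01, 95% interval 0.95 to 5.55), with an unadjusted p of 0.011 and an adjusted p of 0.0783 by limma. Only 231 of the 24847 genes tested in Hanevalval had a higher log2 fold change, while 97.9% of genes had a smaller residual spread than SiPHT1;4.

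The call of SiPHT1;4 in Hanevalval depended on the fit. DESeq2 on the recovered reads called it (log2 fold change 2.70, adjusted p = 0.0162), and so did 1 limma fit over the 24 libraries (3.25, adjusted p = 0.00574), whereas edgeR did not (2.69, adjusted p = 0.104). Mock libraries 3 and 4 were also those set apart by the mycorrhizal marker. They differed from libraries 1 and 2 over all genes as well. The chi-square per gene, which is higher where libraries differ more, was 18.6 between 1 and 2 and 48.9 between 3 and 4. Across these pairs it was 174 to 188. The paper also reports that mock-treated Hanevalval did not cluster well. The part of libraries 3 and 4 in the result was not tested further than by leaving them out. Without both, limma gave a log2 fold change of 5.04 with an adjusted p of 0.00121. Leaving out both was chosen after seeing the data, and that fit called 4068 genes higher and 3760 lower of 24726. With all libraries, 354 and 350 of 24847 were called. Without mock library 3 alone the log2 fold change of SiPHT1;4 was 3.84 with an adjusted p of 0.0358, where 1764 genes were called higher and 2200 lower. When any other single library was left out the call was not made, but in most such fits hardly any gene in Hanevalval was called.

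SiPHT1;3 was at 122, 144, 30.5 and 62.3 in AMF-treated Hanevalval, against 408, 525, 164 and 44.2 in mock-treated Hanevalval. Mock libraries 1 and 2 were above all AMF libraries, mock library 3 was just above them and mock library 4 was among them. The log2 fold change of -1.38 (SE 0.80, limma, adjusted p = 0.253) did not pass the test. Without mock libraries 3 and 4, a choice made after seeing the data, it was -2.59 with an adjusted p of 0.00928. That passes, in a fit that called 3760 of 24726 genes lower.

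SiPHT1;5 was at 262, 52.6, 158 and 33.3 in AMF-treated Hanevalval and at 82.1, 81.6, 260.2 and 44.2 in mock-treated Hanevalval. The ranges were nearly the same and spanned more than 5-fold in each treatment. Its log2 fold change was -0.02 (95% interval -1.69 to 1.65, limma, adjusted p = 0.986). SiPHT1;12 was at 275, 78.4, 235 and 98.8 in AMF-treated Hanevalval and at 51.3, 68.3, 276 and 184 in mock-treated Hanevalval. Here mock libraries 1 and 2 were the lowest of the 8 libraries and mock library 3 the highest. The log2 fold change was 0.37 (95% interval -1.04 to 1.78, limma, adjusted p = 0.695). Leaving out mock libraries 3 and 4 gave 0.18 for SiPHT1;5 and 1.32 for SiPHT1;12, and neither passed.

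In Hanevalval limma, fitted within the line, thus called 0 of the 4 members in either direction, where 1.42% of all genes were called higher and 1.41% lower. At an unadjusted p of at most 0.05 with the 2-fold threshold it was 1 member, SiPHT1;4, beside 8.3% of all genes higher and 9.55% lower. DESeq2 called 1 member and edgeR 0. SiPHT1;4 was the 1 member with no overlap between treatments, as were 11.6% of all genes with AMF above mock and 9.08% with AMF below mock. Over all genes in Hanevalval the median log2 fold change was 0.01.

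In ISE36 every member overlapped between treatments. SiPHT1;3 was at 102, 119, 21.5 and 77.4 in AMF-treated ISE36, against 353, 70.4, 105 and 48.2 in mock-treated ISE36. Apart from mock library 1, the mock values lay within the AMF range. Its log2 fold change was -0.65 (95% interval -2.13 to 0.83, limma, adjusted p = 0.488). SiPHT1;4 was at 37.8, 38.8, 18.0 and 35.4 in AMF-treated ISE36, against 2.66, 22.4, 51.5 and 58.2 in mock-treated ISE36. Mock library 1, the highest for SiPHT1;3, was the lowest for SiPHT1;4 with 3 reads. The log2 fold change of SiPHT1;4 was 0.50 (95% interval -1.24 to 2.24, limma, adjusted p = 0.657) and was near 0 with the count models, at -0.054 with DESeq2 and -0.048 with edgeR.

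SiPHT1;5 was at 23.6, 16.9, 12.9 and 17.7 in AMF-treated ISE36 and at 12.4, 17.4, 21.7 and 33.7 in mock-treated ISE36, with 14 to 37 reads in any of these libraries. The mock libraries spanned the whole AMF range. SiPHT1;12 was at 45.4, 39.8, 36.1 and 53.1 in AMF-treated ISE36 and at 27.5, 54.7, 48.8 and 41.9 in mock-treated ISE36. Its means were nearly equal, 43.6 ± 7.42 in AMF-treated and 43.2 ± 11.7 in mock-treated roots (SD, n = 4 each). The log2 fold changes were -0.19 for SiPHT1;5 (95% interval -0.94 to 0.56) and 0.04 for SiPHT1;12 (95% interval -0.51 to 0.60). A 2-fold change of these 2 genes lay outside the intervals in either direction.

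In ISE36 limma, DESeq2 and edgeR each called 0 of the 4 members, and 0 passed an unadjusted p of at most 0.05. Over all genes in ISE36, limma called 5.79% higher and 4.81% lower, and 6.62% and 5.84% passed at the unadjusted p with the 2-fold threshold. None of the members was free of overlap, while 17.1% of all genes had every AMF library above every mock library and 14.7% had every one below. Their median log2 fold change was -0.01. For SiPHT1;3 and SiPHT1;4 the spread between libraries was large, since 98.3% and 99.2% of the genes tested in ISE36 had a smaller residual spread, so changes of more than 2-fold in either direction remained within the interval of SiPHT1;4.

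**Figure D2:**
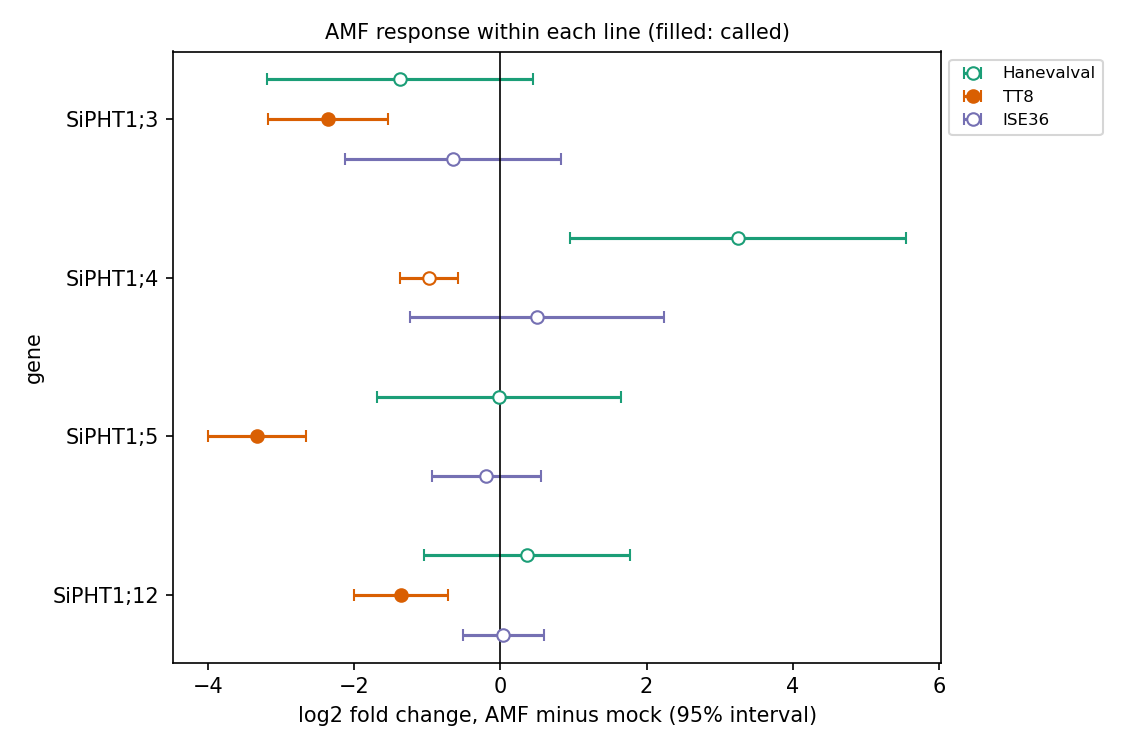
Log2 fold change, AMF minus mock, of each SiPHT1 gene in each line (x axis) with its 95% interval, filled where the adjusted p was at most 0.05 and the change at least 2-fold. The filled points are SiPHT1;3, SiPHT1;5 and SiPHT1;12 in TT8, at -2.36, -3.33 and -1.36, and the wide interval of SiPHT1;4 in Hanevalval runs from 0.95 to 5.55.

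A difference in the response itself was tested as the interaction of line and treatment, in 1 limma fit over the 24 libraries. This fit shares 1 spread per gene among the lines, so the scatter in Hanevalval also enters the comparison of TT8 with ISE36. For SiPHT1;5, the response in Hanevalval exceeded that in TT8 by 3.31 on the log2 scale (SE 0.75, adjusted p = 0.00754). The response of SiPHT1;5 in TT8 was likewise lower than that in ISE36, with a difference of -3.14 (SE 0.75, adjusted p = 0.0107). The fall of SiPHT1;5 in TT8 was therefore larger than what was measured in either landrace. In ISE36, however, SiPHT1;5 was already low in mock-treated roots, at 12.4 to 33.7 with 14 to 37 reads. Mock-treated TT8 was at 104 to 196. For SiPHT1;4, the responses of Hanevalval and TT8 differed by 4.23 (SE 1.18, adjusted p = 0.0208), with higher values under AMF in Hanevalval and lower values under AMF in TT8. These 3 differences were called in each of the 7 alternative fits and when any 1 of the 24 libraries was left out.

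SiPHT1;12 differed between Hanevalval and TT8 by 1.73 (95% interval 0.40 to 3.05, adjusted p = 0.0692), which missed the threshold with limma and passed with DESeq2 (1.70, adjusted p = 0.0447). Without Hanevalval mock libraries 3 and 4 it passed at 2.68 (adjusted p = 0.00127), where 7150 of 23468 genes were called, against 3585 of 23557 with all libraries. Between TT8 and ISE36 the response of SiPHT1;12 differed by -1.40 (95% interval -2.72 to -0.08, adjusted p = 0.143). The response of SiPHT1;3 was not shown to differ between any pair. It was 0.98 for Hanevalval minus TT8 (95% interval -1.12 to 3.08), -1.71 for TT8 minus ISE36 (95% interval -3.81 to 0.39) and -0.73 for Hanevalval minus ISE36 (95% interval -2.83 to 1.37). The call of SiPHT1;3 in TT8 alone is therefore not shown to set TT8 apart from the landraces.

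For the response of Hanevalval minus TT8, 2 of the 4 members were called higher, beside 6.41% of all genes higher and 8.8% lower. For TT8 minus ISE36, 1 member was called lower, beside 6.15% of all genes lower and 8.1% higher. For Hanevalval minus ISE36, limma called 0 members and hardly any gene at all (0.0085% higher and 0.017% lower). At an unadjusted p of at most 0.05, SiPHT1;4 was the 1 member to differ between Hanevalval and ISE36, by 2.75 (95% interval 0.303 to 5.196, adjusted p = 0.534), and DESeq2 and edgeR called 0. Without Hanevalval mock libraries 3 and 4 the difference was 4.53 and passed, with an adjusted p of 0.00709. That fit called 3264 of 23429 genes for this pair, against 6 of 23525 with all libraries. The same fit called SiPHT1;12 for TT8 minus ISE36, at an unchanged -1.40, with an adjusted p of 0.0469. All TT8 and ISE36 libraries were kept there, so only the spread shared among the lines and the adjustment over all genes had changed. For TT8 minus ISE36 that fit called 5264 of 23492 genes, against 3348 with all libraries.

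**Figure D3:**
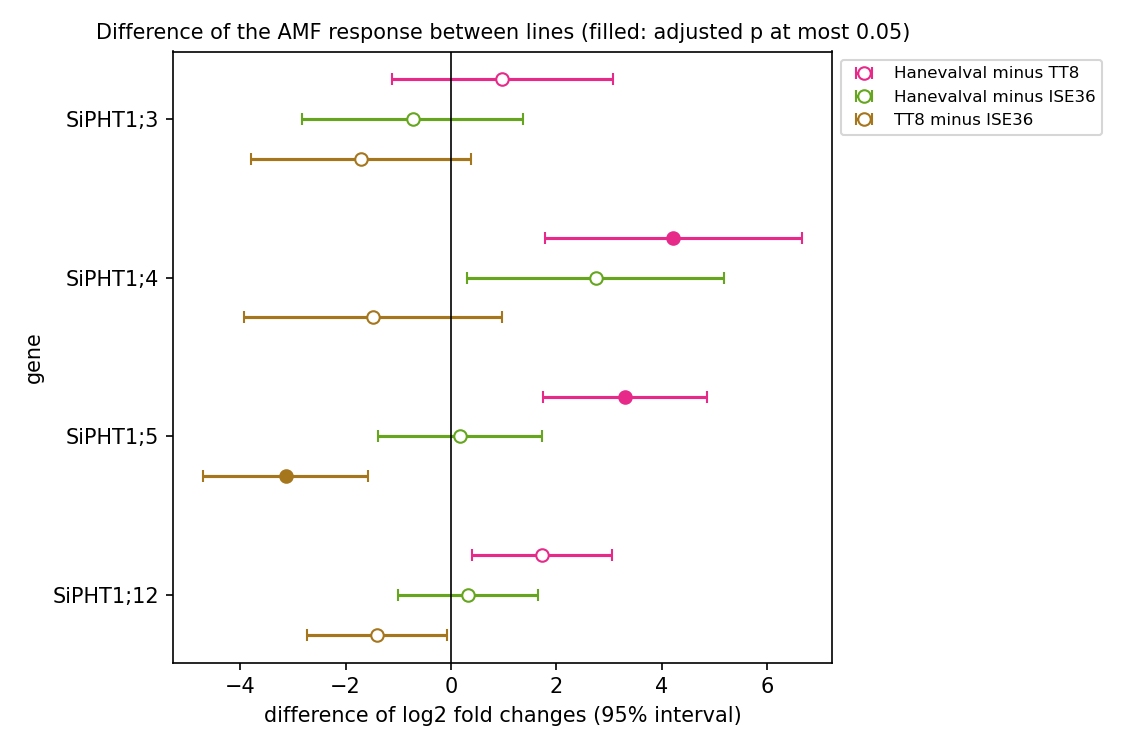
Difference of the log2 fold changes between pairs of lines (x axis) with 95% intervals for each SiPHT1 gene, filled where the adjusted p was at most 0.05. The filled points are SiPHT1;4 at 4.23 and SiPHT1;5 at 3.31 for Hanevalval minus TT8, and SiPHT1;5 at -3.14 for TT8 minus ISE36.

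The lines also differed in the levels of these genes within a treatment. Among AMF-treated roots, Hanevalval stood above both other lines for SiPHT1;4, SiPHT1;5 and SiPHT1;12. SiPHT1;4 averaged 3235 ± 2519 in AMF-treated Hanevalval, 68.9 ± 5.75 in TT8 and 32.5 ± 9.75 in ISE36 (SD, n = 4 each). The log2 difference of SiPHT1;4 was 5.17 for Hanevalval minus TT8 (SE 0.83, limma, adjusted p = 5.7e-05) and 6.29 for Hanevalval minus ISE36 (SE 0.83, adjusted p = 1.5e-05). The lowest Hanevalval library, at 976, was above every TT8 and ISE36 library of either treatment.

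SiPHT1;5 averaged 126 ± 106 in AMF-treated Hanevalval, against 14.7 ± 4.41 in AMF-treated TT8 and 17.8 ± 4.44 in AMF-treated ISE36 (SD, n = 4 each). Its log2 differences were 2.63 for Hanevalval minus TT8 (adjusted p = 5.1e-04) and 2.35 for Hanevalval minus ISE36 (adjusted p = 0.0032). SiPHT1;12 averaged 172 ± 97.9, 44.1 ± 5.79 and 43.6 ± 7.42 in AMF-treated Hanevalval, TT8 and ISE36 (SD, n = 4 each), and Hanevalval was higher by 1.75 (adjusted p = 0.00366) and 1.77 (adjusted p = 0.00753) on the log2 scale. SiPHT1;3 did not differ between the lines beyond its spread in AMF-treated roots, with means of 89.6 ± 52.4 in Hanevalval, 146 ± 76.8 in TT8 and 80.1 ± 42.7 in ISE36 (SD, n = 4 each). These calls held in each of the 7 alternative fits and with any 1 library left out.

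Among AMF-treated roots, 3 of 4 members were thus called higher in Hanevalval than in TT8, beside 9.82% of all genes, and 0 lower, beside 14.9%. Against ISE36 it was 3 of 4 higher, beside 4.04% of all genes, and 0 lower, beside 7.8%. Between AMF-treated TT8 and ISE36 limma, DESeq2 and edgeR called 0 members and 0 passed an unadjusted p of at most 0.05, where limma called 9.09% of all genes higher and 8.89% lower. For SiPHT1;4 the spread in this test includes the wide scatter of Hanevalval, because the fit shares 1 spread per gene among the lines. SiPHT1;4 was at 63.3 to 75.8 in AMF-treated TT8 and at 18.0 to 38.8 in AMF-treated ISE36, without overlap. The ranges of the remaining members overlapped between these groups.

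In mock-treated roots, TT8 was called above ISE36 for all 4 genes. The order of the line means differed from that in AMF-treated roots for SiPHT1;5 only. SiPHT1;3 averaged 676 ± 102 in mock-treated TT8 and 144 ± 141 in mock-treated ISE36 (SD, n = 4 each), a log2 difference of 2.65 (SE 0.71, limma, adjusted p = 0.0092). SiPHT1;5 averaged 155 ± 38.8 in mock-treated TT8 and 21.3 ± 9.08 in mock-treated ISE36 (SD, n = 4 each), with no overlap and a log2 difference of 2.86 (SE 0.53, limma, adjusted p = 6.3e-04). SiPHT1;4 averaged 138 ± 24.8 in mock-treated TT8 and 33.7 ± 25.9 in mock-treated ISE36 (SD, n = 4 each), and SiPHT1;12 121 ± 45.8 and 43.2 ± 11.7 in the same order. Their log2 differences were 2.59 (adjusted p = 0.0241) and 1.42 (adjusted p = 0.0225). The call of SiPHT1;4 was lost without ISE36 mock library 1 (1.72), without TT8 mock library 1 or 2 (2.57 each) and with edgeR (2.05, adjusted p = 0.0504). That of SiPHT1;12 was lost without TT8 mock library 2 (1.21) or 3 (1.37) or ISE36 mock library 1 (1.23). All 4 members were thus called higher in mock-treated TT8 than in mock-treated ISE36, beside 5.92% of all genes, with 10.5% lower.

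SiPHT1;4, SiPHT1;5 and SiPHT1;12 were also higher in mock-treated Hanevalval than in mock-treated ISE36, by 3.54 on the log2 scale for SiPHT1;4 (limma, adjusted p = 0.007), 2.18 for SiPHT1;5 (adjusted p = 0.00926) and 1.45 for SiPHT1;12 (adjusted p = 0.0404). These 3 of 4 stood beside 2.78% of all genes higher and 4.08% lower. Without Hanevalval mock libraries 3 and 4, the difference of SiPHT1;4 was 1.75 and that of SiPHT1;12 was 0.49, both no longer passing, while SiPHT1;3 passed at 2.11. That fit called 3972 of 23429 genes for this pair, against 1613 of 23525 with all libraries. Only SiPHT1;5 was called for mock-treated Hanevalval against ISE36 both with and without Hanevalval mock libraries 3 and 4. For SiPHT1;12 the call was also lost when Hanevalval mock library 3 or 4 alone, or any 1 of the 4 ISE36 mock libraries, was left out (1.03 to 1.57).

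Between mock-treated Hanevalval and TT8 limma, DESeq2 and edgeR called 0 members, where limma called 2.22% of all genes higher and 1.55% lower. SiPHT1;3 was the 1 member with an unadjusted p of at most 0.05, with means of 285 ± 220 in mock-treated Hanevalval and 676 ± 102 in mock-treated TT8 (SD, n = 4 each) and a log2 difference of -1.74 (95% interval -3.23 to -0.26, adjusted p = 0.126). Of the remaining members, SiPHT1;5 differed by -0.68, SiPHT1;4 by 0.95 and SiPHT1;12 by 0.02, and each 95% interval included 0. SiPHT1;5 averaged 117 ± 97.1 in mock-treated Hanevalval and 155 ± 38.8 in mock-treated TT8 (SD, n = 4 each).

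The order of the 6 group means differed from gene to gene. SiPHT1;5 had a high set of mock-treated TT8 and both Hanevalval groups (155, 126 and 117) and a low set of both ISE36 groups and AMF-treated TT8 (21.3, 17.8 and 14.7). Neighbours within each set, as far as they were tested, did not differ beyond their spread. SiPHT1;12 had the same sets, with means of 172, 145 and 121 in AMF-treated Hanevalval, mock-treated Hanevalval and mock-treated TT8, and of 44.1, 43.6 and 43.2 in AMF-treated TT8, AMF-treated ISE36 and mock-treated ISE36. The SiPHT1;12 mean of mock-treated Hanevalval rested on libraries 3 and 4, at 276 and 184, with libraries 1 and 2 at 51.3 and 68.3. Without libraries 3 and 4 its log2 difference from mock-treated ISE36 was 0.49 and was not called. For both genes, the mean of AMF-treated TT8 roots thus lay next to those of ISE36 roots. The means of SiPHT1;4 were ordered by line, with both Hanevalval groups above both TT8 groups and these above both ISE36 groups. For mock-treated roots the place of Hanevalval above TT8 rested on mock libraries 3 and 4, since the log2 difference of 0.95 (adjusted p = 0.475) was not called and was -0.84 without them. SiPHT1;3 was highest in mock-treated TT8, followed by mock-treated Hanevalval, and the 4 remaining group means lay between 80.1 and 146.

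A ratio of 2 genes within a library does not depend on the size factor, and these ratios are given as a description. SiPHT1;4 over SiPHT1;3 was 13.8, 6.78, 217 and 59.2 in AMF-treated Hanevalval, against 0.246, 0.108, 5.42 and 21.0 in mock-treated Hanevalval. Mock libraries 1 and 2 of Hanevalval thus resembled mock-treated TT8, where the ratio was 0.187 to 0.246, and mock libraries 3 and 4 lay near the AMF-treated libraries. In AMF-treated TT8 the ratio was 0.261, 0.563, 0.430 and 1.23, all above the mock-treated TT8 libraries. In ISE36 it was 0.325 to 0.840 in AMF-treated and 0.00754 to 1.21 in mock-treated roots, which overlapped. Within AMF-treated Hanevalval, the libraries ranked for SiPHT1;4 in exactly the reverse of their rank for SiPHT1;3.

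**Figure D4:**
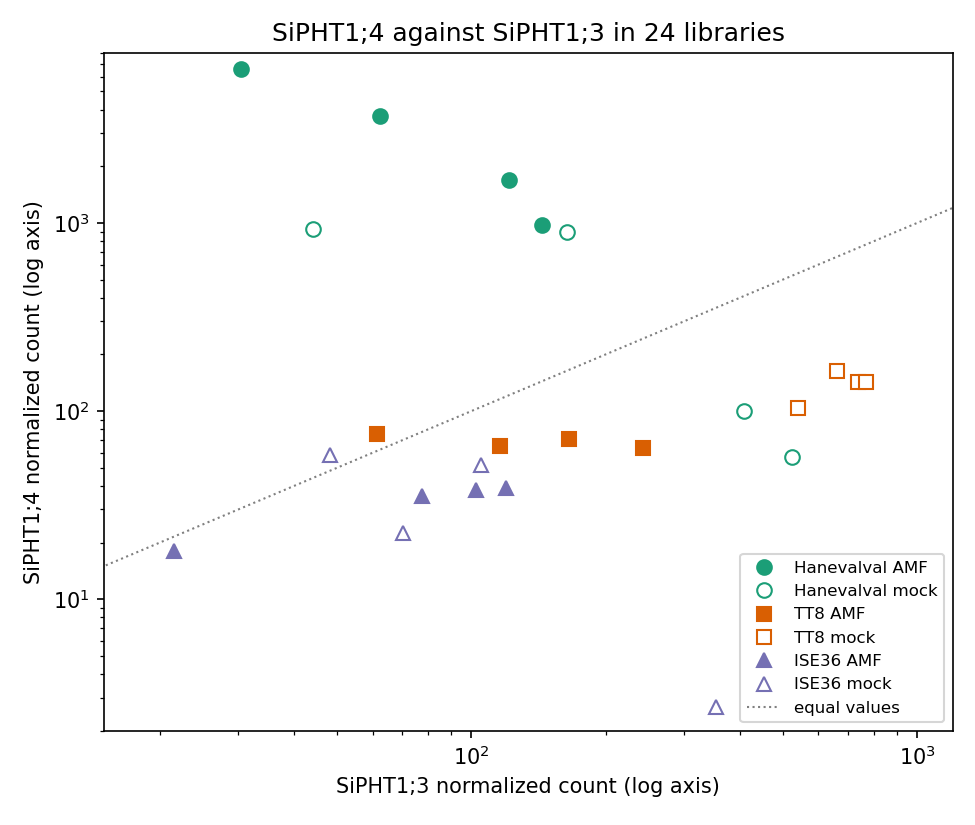
Normalized counts of SiPHT1;4 (y axis) against SiPHT1;3 (x axis) in the 24 libraries, both on log axes, with AMF-treated libraries filled and mock-treated libraries open. The dotted line marks equal values and is a guide to the eye only, since levels cannot be compared between genes. All 4 AMF-treated Hanevalval libraries and 2 mock-treated ones lie far above the line, at ratios from 5.42 to 217, and the other 2 mock-treated Hanevalval libraries lie near mock-treated TT8.

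SiPHT1;5 over SiPHT1;12 was 0.459, 0.400, 0.200 and 0.292 in AMF-treated TT8, against 2.27, 1.10, 1.34 and 0.917 in mock-treated TT8. SiPHT1;5 thus had the greater fall of the pair in TT8, without overlap of the ratios. In ISE36 the ratio was 0.333 to 0.521 in AMF-treated and 0.318 to 0.804 in mock-treated roots, and in Hanevalval 0.337 to 0.952 in AMF-treated and 0.240 to 1.60 in mock-treated roots. The ratio of AMF-treated TT8 roots thus came close to that of ISE36 roots of either treatment, as the levels of both genes did.

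Over the 24 libraries, the gene most like SiPHT1;3 by Pearson correlation of log2(value + 1) was SETIT_004448mg (r = 0.974), out of the genes averaging at least 50 in every line. For SiPHT1;4 it was SETIT_030481mg (r = 0.942), for SiPHT1;5 SETIT_030343mg (r = 0.930) and for SiPHT1;12 SETIT_008506mg (r = 0.895). SETIT_004448mg averaged 231 in AMF-treated and 824 in mock-treated TT8, and SETIT_030343mg 110 in AMF-treated and 497 in mock-treated TT8, so the means of both were lower in AMF-treated roots, as those of the transporters were. SETIT_030481mg averaged 1293 in AMF-treated and 560 in mock-treated Hanevalval, a smaller ratio than that of SiPHT1;4. These correlations describe libraries that fall into 6 groups and share their normalization, and they carry no test. The deposited tables do not pair these identifiers with gene names.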

How the data were processed

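Root RNA libraries of Hanevalval, TT8 and ISE36 (4 AMF- and 4 mock-treated each) were used as labelled, and 0 columns lacked a sample. The authors trimmed reads with Trimmomatic 0.38, aligned them with HISAT2 2.1.0 against the v2.0 genome of S. italica, summarised them per gene with featureCounts 2.0.0 and divided the counts by DESeq2 1.26.0 size factors. All lines were thus aligned to 1 reference genome. The deposited signal values are these normalized counts. Dividing by each library's step gave whole reads for 100% of 607864 values (tolerance 0.01), and no libraries of a group were duplicates (smallest chi-square per gene 7.06). Listed genes had at least 6 reads in at least 2 libraries of the line.

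AMF and mock were compared within lines with limma 3.58.1 (R 4.3.3) on log2(value + 1) with a variance trend, for genes averaging at least 5, with Benjamini-Hochberg adjustment over all of them. Responses and levels of lines were compared in 1 limma fit of 6 group means. Alternatives were DESeq2 1.42.0 and edgeR 4.0.16 on recovered reads, a pseudocount of 8, CPM scaling, quantile normalization, no filter on low values, a replicate block, 1 fit over 24 libraries and leaving out each library. Leaving out both Hanevalval mock libraries 3 and 4 was chosen after seeing the data. The steps were tested on simulated data with large changes and 1 spread setting for all genes. Spreads as wide as those of the members in Hanevalval were not simulated. Python 3.11.15 with matplotlib 3.10.9, pandas 2.3.3 and numpy 2.4.6 drew the plots and wrote the tables.

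The 4 genes and the 9 symbiosis genes were chosen with earlier results of these data known. Genes named were the 4 members, SiPHT1;9 and the gene most correlated with each member. The reference gene table matched 0 members, so wider phosphate gene lists and sequences were not used here.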

Additional observations from a re-analysis of the deposited data

Results flagged for a closer look

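Of 30 groups of 4 libraries examined for a library far from the other 3, chance would set about 5% apart. SiPHT1;12 was at 52.7 in library 4 of AMF-treated TT8, against 40.4 to 41.9 in the other 3. SiPHT1;4 was at 18.0 in library 3 of AMF-treated ISE36, against 35.4 to 38.8 in the other 3. The summed symbiosis genes were at 9315 in library 2 of AMF-treated TT8 and at 223 in library 4 of mock-treated TT8, where the other 3 mock libraries held 79.0 to 94.97.

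The AMF response differed between lines by the interaction test for SiPHT1;4 in Hanevalval minus TT8 (4.23 on the log2 scale) and for SiPHT1;5 in Hanevalval minus TT8 (3.31) and in TT8 minus ISE36 (-3.14). In Hanevalval single libraries varied widely for SiPHT1;4, which was at 976 to 6599 in AMF-treated and 57.0 to 929 in mock-treated Hanevalval.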

How the results depend on the processing

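The calls of SiPHT1;3, SiPHT1;5 and SiPHT1;12 in TT8 and the 3 response differences kept their side of the threshold in each alternative fit run for them (8 and 7) and each leave-out. The count of members called higher in Hanevalval moved to 1 (SiPHT1;4) with DESeq2, with the replicate block, with 1 fit over 24 libraries and without Hanevalval mock libraries 3 and 4, and ranged from 0 to 1 when single libraries were left out. Without mock libraries 3 and 4, the count called lower in Hanevalval moved to 1 (SiPHT1;3), the count of differing responses to 1 for Hanevalval minus ISE36 and to 2 for TT8 minus ISE36. The count of members higher in mock-treated TT8 than in ISE36 ranged from 2 to 4 over the leave-outs. In Hanevalval, counts over all genes moved with the setting, at 354 higher and 350 lower with limma, 1254 and 2358 with DESeq2, and 285 and 480 with edgeR. The cause was not tested.

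Changes of direction occurred only for values that missed the test. SiPHT1;5 in Hanevalval was 0.10 with DESeq2, 0.087 with edgeR, 0.032 with quantile normalization and 0.18 without mock libraries 3 and 4. SiPHT1;4 in ISE36 was -0.054 with DESeq2 and -0.048 with edgeR, and SiPHT1;12 in ISE36 was -0.026 with CPM scaling. SiPHT1;12 for AMF-treated TT8 minus ISE36 was -0.022 with CPM scaling and -0.0094 with quantile normalization, and for mock-treated Hanevalval minus TT8 it was -0.048 with CPM scaling. Without mock libraries 3 and 4, mock-treated Hanevalval minus TT8 was -0.93 for SiPHT1;12 and -0.84 for SiPHT1;4, and the response difference of SiPHT1;3 for Hanevalval minus TT8 was -0.23. Over the leave-outs the log2 fold change ranged from -0.52 to 0.47 for SiPHT1;5 and from -0.018 to 0.78 for SiPHT1;12 in Hanevalval, and in ISE36 from -0.38 to 0.96 for SiPHT1;4, from -0.41 to 0.051 for SiPHT1;5 and from -0.16 to 0.17 for SiPHT1;12. The response of Hanevalval minus ISE36 ranged from -0.33 to 0.66 for SiPHT1;5 and from -0.060 to 0.74 for SiPHT1;12, and levels ranged from -0.39 to 0.41 for SiPHT1;12 in mock-treated Hanevalval minus TT8, from -0.36 to 0.60 for SiPHT1;3 in AMF-treated Hanevalval minus ISE36 and from -0.065 to 0.12 for SiPHT1;12 in AMF-treated TT8 minus ISE36.

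Whether replicate numbers pair the libraries was not settled. Correlations of same-numbered deviations were 0.04 to 0.23 in Hanevalval, -0.10 to 0.16 in TT8 and -0.14 to 0.18 in ISE36. Those of libraries with different numbers were -0.18 to 0.19 in Hanevalval, -0.26 to 0.32 in TT8 and -0.40 to 0.35 in ISE36. The replicate block left SiPHT1;4 in Hanevalval at 3.25 with an adjusted p of 0.0245, and moved the calls of all genes there to 885 higher and 982 lower. It changed no other call of a member between AMF and mock within a line, and it was not fitted for the comparisons between lines.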
